A study of Arabidopsis thaliana with 12 samples.

Results

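Transcript levels of 36 genes of sulphur assimilation and sulphur deficiency were followed by RNA-seq in Arabidopsis thaliana seedlings, out of 27655 genes in the deposited tables. The set was listed by gene identifier and holds 6 sulphate transporters, 4 ATP sulfurylases, 3 APS reductases and sulphite reductase, 2 APS kinases, 5 serine acetyltransferases, 3 OAS thiol-lyases, 2 glutathione synthesis genes, 9 sulphur deficiency genes and the regulator SLIM1. The genes were chosen by measured values, because APR1 and the LSU genes rose less in light in flu1-5 ex1 than in flu1-1 ex1. A smaller rise can come from a higher dark level as well as from a lower light level, so the choice touched every comparison here, that of the lines in dark included. All of them are therefore given as a description, without p-values, and calls are read against those over all genes.

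Both lines carry a mutation in FLU, the chloroplast repressor of chlorophyll synthesis in darkness, and the ex1 mutation of EXECUTER1, and they differ in the flu allele, flu1-1 or flu1-5. At an age of 6 days seedlings were harvested from 4 h of darkness, or from the same darkness with 1 h of light added, with 3 libraries in each of the 4 groups and about 100 seedlings in each replicate per the file headers. No group lacked the flu or the ex1 mutation and none stayed dark for the further 1 h, so light, singlet oxygen released by the accumulated chlorophyll precursor, and time cannot be told apart. The labels do not say whether replicates came from separate cultures, so standard errors and calls measure the spread between these libraries. FLU was at 184 to 197 TPM (the deposited level, scaled to library total and transcript length) in the libraries of flu1-1 ex1. In those of flu1-5 ex1 it was at 13.2 to 17.0 TPM. This split follows the line labels, which do not say what either flu allele does to the FLU level. It therefore shows that the libraries of the lines differ, but not which allele is which. EX1 was at 37.1 to 86.3 TPM, and the labels do not say which part of that gene the mutation affects, so its level checks nothing. The 8 green tissue markers were all present, with a lowest summed level of 33526 TPM and a highest of 41122 TPM. Of 9 root markers, 7 had a mean under 1 TPM and reached at most 1.34 TPM in any library, although the labels name seedlings. The summed root markers, nearly all PYK10, were at 852 to 865 TPM in flu1-1 ex1 dark, 962 to 1000.4 TPM in flu1-1 ex1 light, 856 to 930.4 TPM in flu1-5 ex1 dark and 702 to 711 TPM in flu1-5 ex1 light, and their part in the results below was not tested.

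Plants take up sulphate through SULTR transporters and activate it with ATP sulfurylase to adenosine 5′-phosphosulphate (APS). APS reductase and sulphite reductase then reduce it to sulphide, while APS kinase diverts APS to sulphated compounds such as glucosinolates. Serine acetyltransferase makes O-acetylserine, which OAS thiol-lyase joins with sulphide to form cysteine, the source of glutathione. The LSU, SDI, SHM7, GGCT2;1 and BGLU28 genes are known for their rise when plants lack sulphur, and the transcription factor SLIM1 controls part of that response.

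LSU2 and LSU4 are neighbours on chromosome 5 with 1914 bases and no protein-coding gene between them, as are LSU1 and LSU3 on chromosome 3 with 1760 bases between them, all on the minus strand. The coding sequences of LSU2 (chr5:8443472-8443756, 1 exon, 285 bases) and LSU4 (chr5:8440859-8441137, 1 exon, 279 bases) are shown because this closely related pair differed most in level among the LSU genes. They are from the RefSeq genome TAIR10.1, minus strand, read 5′ to 3′, and capitals mark the bases that differ in the alignment of the pair.
LSU2: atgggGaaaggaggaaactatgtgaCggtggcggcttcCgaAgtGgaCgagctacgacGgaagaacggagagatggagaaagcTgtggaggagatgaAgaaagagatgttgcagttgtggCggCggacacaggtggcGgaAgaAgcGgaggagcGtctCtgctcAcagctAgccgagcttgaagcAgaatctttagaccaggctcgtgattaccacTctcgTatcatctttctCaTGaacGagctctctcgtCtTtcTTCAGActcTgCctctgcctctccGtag
LSU4: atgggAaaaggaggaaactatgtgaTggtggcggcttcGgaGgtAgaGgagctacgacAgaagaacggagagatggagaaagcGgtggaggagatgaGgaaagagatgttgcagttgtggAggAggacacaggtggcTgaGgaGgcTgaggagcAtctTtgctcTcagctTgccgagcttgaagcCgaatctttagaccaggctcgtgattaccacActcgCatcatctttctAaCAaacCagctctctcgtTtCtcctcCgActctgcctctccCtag
The pair was identical at 88.9% of aligned bases, with a longest shared run of 30 bases, and the other LSU pairs were identical at 70.6% to 83.8%. Because the levels are estimates from reads assigned to similar transcripts, reads of LSU2 and LSU4 may be split between them. The APR coding sequences were identical at 75.7% to 82.4%, with shared runs of at most 41 bases.

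In light in flu1-1 ex1, the genes of sulphur deficiency and of sulphate reduction rose together, LSU2 most, while the OAS thiol-lyases and the sulphite reductase SIR moved little. A member was called when its limma p-value, adjusted by the Benjamini-Hochberg method over all genes tested, was under 0.05, and the test took in genes that averaged 1 TPM or more. Of the 36 members 34 passed that filter in each line, and LSU4 and BGLU28 did not. SERAT3;2 and GGCT2;1 passed it through their light libraries, with dark means under 1 TPM in both lines, so their rise was a condition of being tested. In flu1-1 ex1, 22 of the 34 were higher in light and 4 were lower, against 44.0% and 28.6% of all 18042 genes tested. Of these, 17 were higher by at least 2-fold, against 11.7% of all genes, and 0 were lower by that much, against 6.61%. The median log2 change was 0.98 over the members and 0.12 over all genes tested, and that of the members was 0.517 among genes averaging at least 5 TPM and 0.571 with a pseudocount of 5 in place of 1. Quantile normalization, which lowers the median change of all genes by 0.14, gave 19 higher and 8 lower. In flu1-5 ex1, 21 of 34 members tested were higher and 8 lower, against 38.4% and 29.3% of 18145 genes, and 14 were higher by at least 2-fold, against 9.98%, and 0 lower by that much, against 5.08%. The median was 0.55 over the members and 0.05 over all genes, and that of the members was 0.932 with a pseudocount of 0.1 and 0.365 with one of 5. With quantile normalization, which lowers the median of all genes by 0.12, 21 were higher and 10 lower. In these bulk samples, fewer cells of a type and less RNA per cell cannot be told apart.

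**Figure D1:**
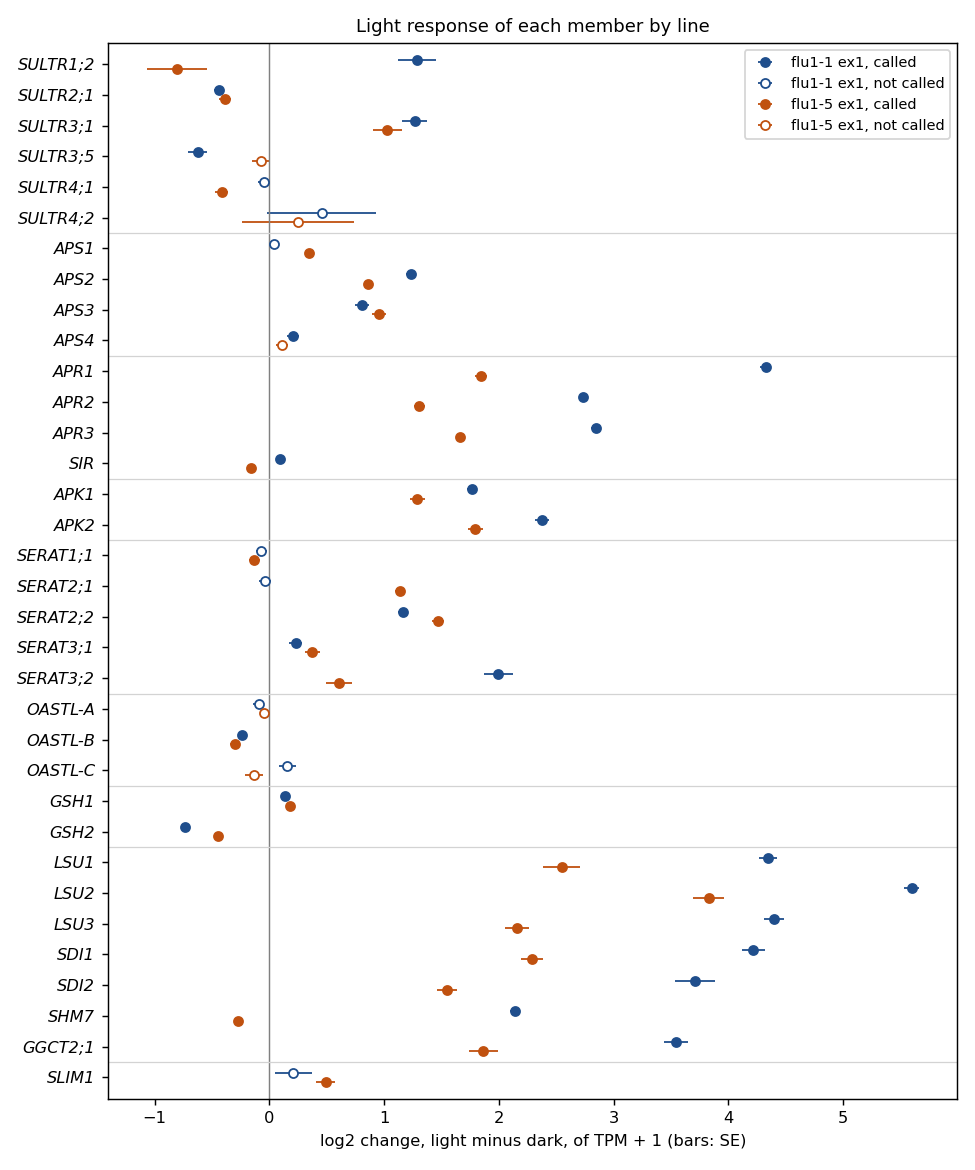
Light response of each member tested in flu1-1 ex1 (blue) and flu1-5 ex1 (orange), as the log2 change of TPM + 1 with its standard error, ordered by role from transporters at the top to SLIM1. Filled points passed the adjusted p of 0.05 and open points did not. LSU2 had a log2 change of 5.60 in flu1-1 ex1 and 3.83 in flu1-5 ex1.

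Of the 6 transporters, 2 were higher and 2 lower in light in flu1-1 ex1, against 44.0% and 28.6% of all genes. In flu1-5 ex1, 1 was higher and 3 were lower, against 38.4% and 29.3%. SULTR1;2 (AT1G78000), a high-affinity sulphate uptake transporter of the root, was at 0.787, 0.718 and 1.54 TPM in flu1-1 ex1 dark, 3.503, 3.62 and 4.45 TPM in flu1-1 ex1 light, 3.34, 1.62 and 4.77 TPM in flu1-5 ex1 dark, and 1.34, 1.04 and 1.59 TPM in flu1-5 ex1 light. Its listed transcript differs between the tables of the lines, so its levels are compared within a line and not across lines. The log2 change was 1.29 ± 0.17 (SE) in flu1-1 ex1, where the groups did not overlap, and -0.80 ± 0.27 in flu1-5 ex1, where they did not overlap either. The call in flu1-5 ex1 was lost on leaving out dark replicate 1 (log2 change -0.75), dark replicate 3 (-0.55), light replicate 1 (-0.81) or light replicate 2 (-0.71). SULTR3;1 (AT3G51895), a transporter of the chloroplast envelope, was at 1.44, 1.06 and 1.09 TPM in flu1-1 ex1 dark, 4.16, 4.43 and 4.23 TPM in flu1-1 ex1 light, 1.36, 1.45 and 1.07 TPM in flu1-5 ex1 dark, and 4.27, 3.40 and 3.37 TPM in flu1-5 ex1 light. All 6 light libraries were above all 6 dark ones, with log2 changes of 1.27 ± 0.11 in flu1-1 ex1 and 1.03 ± 0.12 in flu1-5 ex1. SULTR3;5, a partner of root-to-shoot sulphate transport, fell in flu1-1 ex1 (log2 change -0.62 ± 0.083) and had a log2 change of -0.074 ± 0.074 in flu1-5 ex1, which was not called. SULTR4;2, a vacuolar sulphate exporter, ranged from 0.00241 to 3.34 TPM with dark and light overlapping in both lines, and was called in neither line.

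Of the ATP sulfurylases, which catalyse the first step, 3 of 4 were higher in light in each line, against 44.0% of all genes in flu1-1 ex1 and 38.4% in flu1-5 ex1, and none was lower. They were not the same 3 genes in both lines. In flu1-1 ex1, APS4 was among them but lost its call with quantile normalization (log2 change 0.087), and in flu1-5 ex1 APS1 was called in its place. APS2 (AT1G19920), the isoform also found in the cytosol, was at 49.8, 49.1 and 49.1 TPM in flu1-1 ex1 dark, 116, 113 and 122 TPM in flu1-1 ex1 light, 58.1, 61.5 and 58.0 TPM in flu1-5 ex1 dark, and 108, 107 and 110.5 TPM in flu1-5 ex1 light. Its light libraries were all above its dark libraries, with log2 changes of 1.23 ± 0.036 and 0.86 ± 0.036. APS3 rose by 0.81 ± 0.06 in flu1-1 ex1 and 0.95 ± 0.061 in flu1-5 ex1 on the log2 scale. APS1, the most abundant of the family with 75.2% ± 0.420 of its summed TPM in flu1-1 ex1 dark, had a log2 change of 0.042 ± 0.029 in flu1-1 ex1, not called, and rose by 0.34 ± 0.026 in flu1-5 ex1.

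The APS reductases, which catalyse a step with strong control over the pathway, all rose in both lines. APR1 (AT4G04610) was at 10.7, 9.91 and 10.7 TPM in flu1-1 ex1 dark, 223, 223 and 241 TPM in flu1-1 ex1 light, 18.4, 19.0 and 19.6 TPM in flu1-5 ex1 dark, and 68.9, 75.7 and 68.7 TPM in flu1-5 ex1 light. The 4 groups did not overlap, in the order flu1-1 ex1 dark, flu1-5 ex1 dark, flu1-5 ex1 light and flu1-1 ex1 light. The ratio of mean TPM, light over dark, was 21.9 in flu1-1 ex1 and 3.74 in flu1-5 ex1. APR2 (AT1G62180), the isoform with a major part of the leaf enzyme activity, was at 48.1, 50.2 and 49.4 TPM in flu1-1 ex1 dark, 329, 337 and 336 TPM in flu1-1 ex1 light, 86.1, 82.5 and 78.8 TPM in flu1-5 ex1 dark, and 202, 199 and 217 TPM in flu1-5 ex1 light. The order of the groups was the same and they did not overlap, with ratios of 6.78 and 2.50. APR3 (AT4G21990) was at 50.6, 51.4 and 54.2 TPM in flu1-1 ex1 dark, 371, 369.7 and 403 TPM in flu1-1 ex1 light, 102, 99.7 and 101 TPM in flu1-5 ex1 dark, and 316, 333 and 315 TPM in flu1-5 ex1 light. Its ratios were 7.32 and 3.19, again with no overlap and in the same order.

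Summed over the 3 genes, APS reductase transcripts went from 112 ± 2.50 TPM in dark to 944 ± 30.9 TPM in light in flu1-1 ex1, while in flu1-5 ex1 they were at 202 ± 3.99 TPM and then 598 ± 10.2 TPM (SD, n = 3). APR1 made up 9.35% ± 0.444 of the sum in flu1-1 ex1 dark and 24.2% ± 0.307 in light, but 9.41% ± 0.475 in flu1-5 ex1 dark and 11.9% ± 0.527 in light. APR3 had the largest share in each group, from 40.4% ± 0.706 in flu1-1 ex1 light to 53.7% ± 1.19 in flu1-5 ex1 light. Sulphite reductase (SIR, AT5G04590), encoded by 1 gene, stayed between 201 and 247 TPM. Its log2 change was 0.095 ± 0.029 in flu1-1 ex1, a call lost on leaving out dark replicate 1 (0.083), dark replicate 2 (0.086) or light replicate 2 (0.081), and -0.16 ± 0.03 in flu1-5 ex1.

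**Figure D2:**
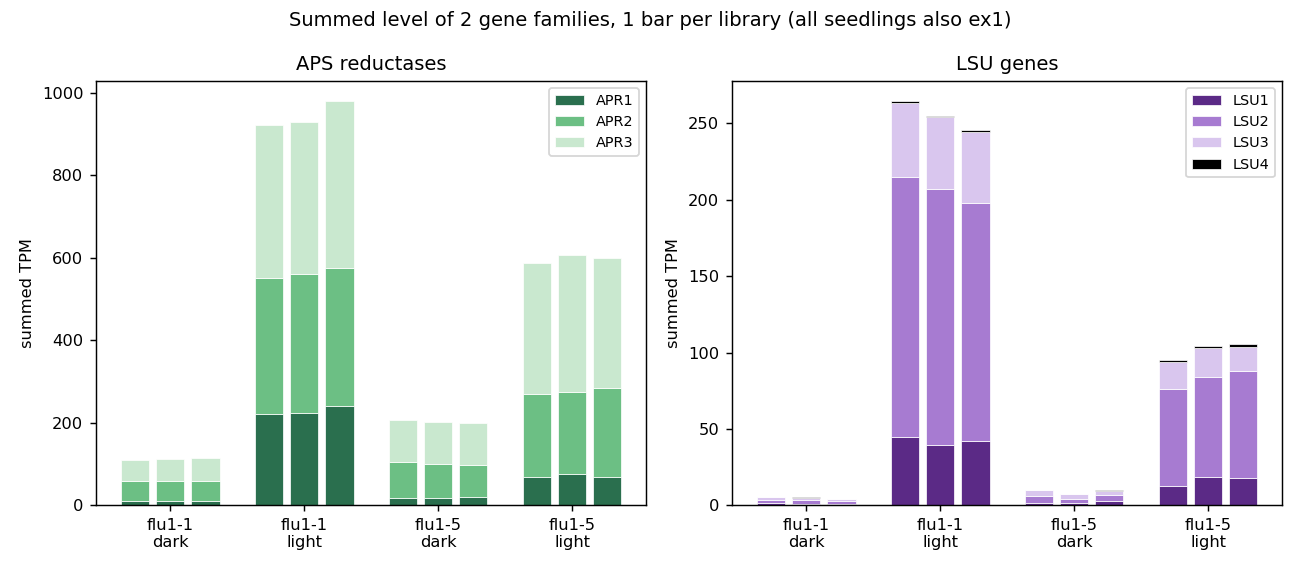
Summed TPM of the APS reductases (left) and of the LSU genes (right), with 1 stacked bar for each library and 1 colour for each gene. The APS reductase sum is highest in flu1-1 ex1 light (mean 944 TPM), and LSU2 makes up most of the LSU sum in both light groups.

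Both APS kinases, which supply the sulphate donor for sulphation, rose in both lines. APK1 (AT2G14750) was at 19.0, 18.7 and 20.1 TPM in flu1-1 ex1 dark, 69.0, 68.0 and 66.7 TPM in flu1-1 ex1 light, 21.1, 20.8 and 24.2 TPM in flu1-5 ex1 dark, and 56.0, 51.9 and 57.6 TPM in flu1-5 ex1 light. APK2 (AT4G39940) was at 9.20, 10.8 and 9.90 TPM in flu1-1 ex1 dark, 55.0, 56.1 and 56.7 TPM in flu1-1 ex1 light, 12.3, 12.5 and 10.8 TPM in flu1-5 ex1 dark, and 41.9, 44.3 and 44.8 TPM in flu1-5 ex1 light. For both genes the light libraries were above the dark ones, and flu1-5 ex1 light was below flu1-1 ex1 light with no overlap. The log2 changes of APK1 were 1.77 ± 0.041 and 1.29 ± 0.066, and those of APK2 were 2.38 ± 0.059 and 1.80 ± 0.063, in flu1-1 ex1 and flu1-5 ex1.

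The serine acetyltransferases, which make the carbon acceptor for sulphide, differed from one another. SERAT2;1 (AT1G55920), the chloroplast isoform, was at 38.3, 41.9 and 43.5 TPM in flu1-1 ex1 dark, 41.4, 40.5 and 38.5 TPM in flu1-1 ex1 light, 51.6, 53.4 and 49.8 TPM in flu1-5 ex1 dark, and 115, 112 and 117 TPM in flu1-5 ex1 light. In flu1-1 ex1 the dark and light libraries overlapped and the log2 change was -0.038 ± 0.054, not called, while in flu1-5 ex1 every light library was above every dark one and the log2 change was 1.14 ± 0.038. SERAT2;2 (AT3G13110), the mitochondrial isoform, was at 40.1, 39.6 and 38.0 TPM in flu1-1 ex1 dark, 93.5, 87.5 and 86.2 TPM in flu1-1 ex1 light, 35.5, 34.5 and 37.3 TPM in flu1-5 ex1 dark, and 101, 107 and 95.3 TPM in flu1-5 ex1 light. It rose in both lines, by 1.16 ± 0.042 and 1.47 ± 0.05 on the log2 scale. SERAT3;2 (AT4G35640), a minor cytosolic isoform, was at 0.833, 0.530 and 1.08 TPM in flu1-1 ex1 dark, 6.28, 5.95 and 6.32 TPM in flu1-1 ex1 light, 0.847, 0.918 and 0.839 TPM in flu1-5 ex1 dark, and 1.69, 2.12 and 1.73 TPM in flu1-5 ex1 light. Both light groups were above both dark groups, flu1-1 ex1 light being the higher, with log2 changes of 2.00 ± 0.13 and 0.61 ± 0.12. Its mean dark level was under 1 TPM in both lines. The other isoforms moved little, SERAT3;1 by 0.23 ± 0.06 and 0.37 ± 0.065, and SERAT1;1 had log2 changes of -0.069 ± 0.045, not called, and -0.13 ± 0.047. The call of SERAT1;1 in flu1-5 ex1 was lost on leaving out dark replicate 2 (-0.13) or 3 (-0.097), or light replicate 1 (-0.12) or 2 (-0.13).

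None of the 3 OAS thiol-lyases, the enzymes that form cysteine, was higher in light in either line. OASTL-B, the chloroplast isoform, fell by 0.24 in flu1-1 ex1 and by 0.30 in flu1-5 ex1 on the log2 scale. OASTL-C, the mitochondrial isoform, had log2 changes of 0.16 ± 0.074 and -0.14 ± 0.077, which were not called. Of the glutathione synthesis genes, GSH1, which encodes the first and rate-limiting enzyme, rose by 0.14 ± 0.029 and 0.18 ± 0.026. GSH2, which encodes glutathione synthetase, fell by 0.73 and by 0.45. The regulator SLIM1 (AT1G73730) was at 8.66 to 15.2 TPM in flu1-1 ex1, where its log2 change of 0.21 ± 0.16 was not called, and rose by 0.49 ± 0.086 in flu1-5 ex1.

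Of the 9 sulphur deficiency genes, LSU1, LSU2, LSU3, SDI1 and SDI2 rose in light by at least 2-fold in both lines, and SHM7 rose in flu1-1 ex1 and fell in flu1-5 ex1. GGCT2;1 also rose in both, but was tested only because of its light level, and LSU4 and BGLU28 were too low to be tested. LSU1 (AT3G49580), like the other LSU genes a small protein of sulphur and stress responses, was at 1.26, 1.14 and 0.984 TPM in flu1-1 ex1 dark, 44.9, 39.6 and 42.3 TPM in flu1-1 ex1 light, 1.66, 1.66 and 2.57 TPM in flu1-5 ex1 dark, and 12.8, 18.5 and 17.7 TPM in flu1-5 ex1 light. LSU2 (AT5G24660) was at 2.56, 2.55 and 2.15 TPM in flu1-1 ex1 dark, 169.9, 168 and 155 TPM in flu1-1 ex1 light, 4.60, 2.76 and 3.99 TPM in flu1-5 ex1 dark, and 63.1, 65.2 and 70.5 TPM in flu1-5 ex1 light. LSU3 (AT3G49570) was at 1.60, 1.16 and 1.14 TPM in flu1-1 ex1 dark, 48.5, 46.6 and 46.8 TPM in flu1-1 ex1 light, 3.72, 2.89 and 3.02 TPM in flu1-5 ex1 dark, and 18.0, 19.5 and 15.9 TPM in flu1-5 ex1 light. For LSU1, LSU2 and LSU3 the 4 groups did not overlap and ran from flu1-1 ex1 dark through flu1-5 ex1 dark and flu1-5 ex1 light to flu1-1 ex1 light. The ratios of mean TPM in flu1-1 ex1 were 37.4 for LSU1, 67.9 for LSU2 and 36.4 for LSU3, and in flu1-5 ex1 they were 8.33, 17.5 and 5.54. LSU4 (AT5G24655) was at 0.204, 0.914 and 0.109 TPM in flu1-1 ex1 dark, 1.25, 0.932 and 1.17 TPM in flu1-1 ex1 light, 0.210, 0.103 and 0.311 TPM in flu1-5 ex1 dark, and 0.961, 1.38 and 1.501 TPM in flu1-5 ex1 light. It was under the filter and has no test, and its light libraries were above its dark libraries in both lines, by little in flu1-1 ex1, where the nearest were at 0.914 and 0.932 TPM.

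In light LSU2 stood at 164 ± 7.85 TPM and its neighbour LSU4 at 1.12 ± 0.166 TPM in flu1-1 ex1, and at 66.3 ± 3.81 and 1.28 ± 0.284 TPM in flu1-5 ex1 (SD, n = 3). The share of LSU2 in the summed TPM of LSU1, LSU2 and LSU3 was 50.0% ± 2.65 in dark and 64.7% ± 1.26 in light in flu1-1 ex1, and 41.8% ± 4.17 and 66.0% ± 2.48 in flu1-5 ex1. That sum went in flu1-1 ex1 from 4.85 ± 0.578 to 254 ± 9.44 TPM, and in flu1-5 ex1 the rise was from 8.96 ± 1.44 to 100.4 ± 5.60 TPM.

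SDI1 (AT5G48850), a repressor of glucosinolate synthesis, was at 1.08, 1.46 and 1.72 TPM in flu1-1 ex1 dark, 43.7, 42.2 and 45.5 TPM in flu1-1 ex1 light, 1.77, 1.86 and 1.97 TPM in flu1-5 ex1 dark, and 11.7, 13.0 and 14.4 TPM in flu1-5 ex1 light. SDI2 (AT1G04770), its homologue, was at 6.60, 3.98 and 6.92 TPM in flu1-1 ex1 dark, 83.0, 85.0 and 91.7 TPM in flu1-1 ex1 light, 11.3, 8.80 and 9.003 TPM in flu1-5 ex1 dark, and 29.1, 30.4 and 31.1 TPM in flu1-5 ex1 light. In both genes the light groups lay above the dark groups and flu1-1 ex1 light lay highest, with ratios of 30.9 and 7.01 for SDI1 and 14.8 and 3.11 for SDI2 in flu1-1 ex1 and flu1-5 ex1. SHM7 (AT1G36370), of the serine hydroxymethyltransferase family, was at 21.5, 20.1 and 21.0 TPM in flu1-1 ex1 dark, 95.7, 92.9 and 97.7 TPM in flu1-1 ex1 light, 40.9, 39.4 and 38.8 TPM in flu1-5 ex1 dark, and 33.3, 33.2 and 31.9 TPM in flu1-5 ex1 light. It rose in flu1-1 ex1 (log2 change 2.14 ± 0.04) and fell in flu1-5 ex1 (-0.27 ± 0.042), and the groups did not overlap in either line. GGCT2;1 (AT5G26220), which breaks down glutathione in the cytosol, was at 0.685, 0.710 and 0.815 TPM in flu1-1 ex1 dark, 20.4, 16.9 and 20.7 TPM in flu1-1 ex1 light, 0.469, 0.482 and 0.838 TPM in flu1-5 ex1 dark, and 5.11, 4.92 and 4.36 TPM in flu1-5 ex1 light. Its light libraries were all above its dark ones, with ratios of 26.2 and 8.04, and its dark level was under 1 TPM. BGLU28 (AT2G44460), a glucosidase linked to glucosinolate breakdown, was at 0.440, 0.354 and 0.277 TPM in flu1-1 ex1 dark, 0.913, 1.35 and 1.36 TPM in flu1-1 ex1 light, 0.891, 1.497 and 0.265 TPM in flu1-5 ex1 dark, and 0.823, 0.639 and 0.818 TPM in flu1-5 ex1 light. Its means were under the filter, and dark and light overlapped in flu1-5 ex1 but not in flu1-1 ex1.

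**Figure D3:**
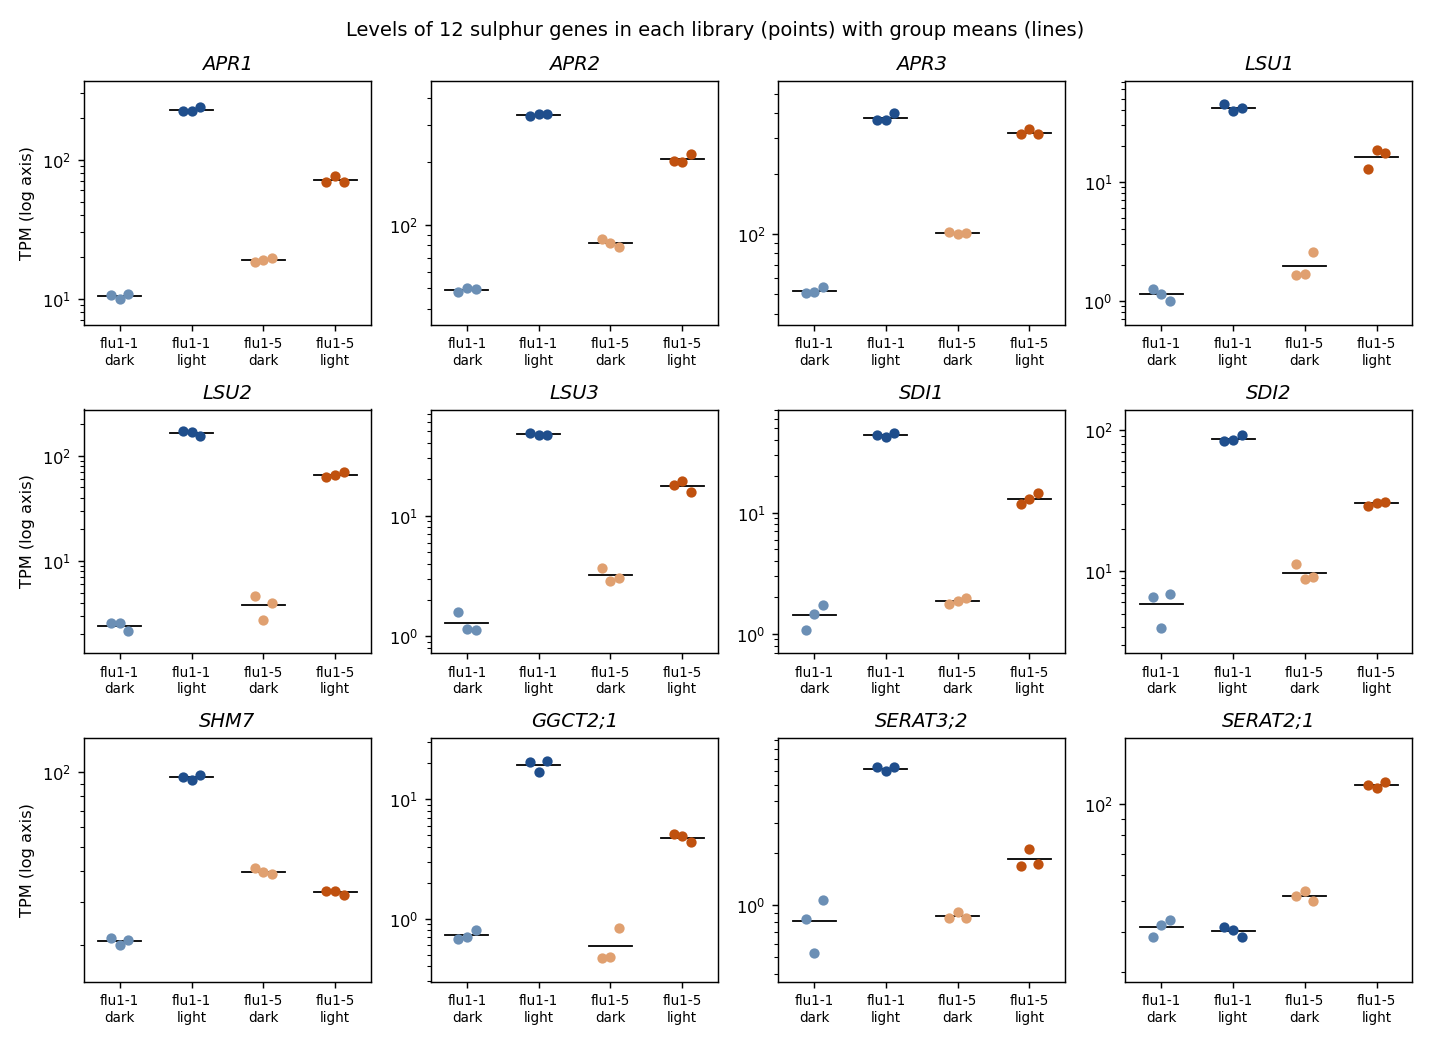
TPM of 12 members in each library on a log axis that differs between panels, with 1 point for each of the 3 libraries of a group and a line at the group mean. SHM7 is higher in light in flu1-1 ex1 and lower in light in flu1-5 ex1, and SERAT2;1 is highest in flu1-5 ex1 light, at a mean of 115 TPM.

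In dark, several of the reduction and deficiency genes were higher in flu1-5 ex1 than in flu1-1 ex1, a direction that the choice of APR1 and the LSU genes favours. Of 33 members tested, 14 were higher in dark in flu1-5 ex1, against 14.7% of 17830 genes, and 0 were lower, against 5.68%. None reached a 2-fold difference, against 0.897% of genes higher and 0.163% lower by that much. At an unadjusted p under 0.05 limma gave 18 higher and 1 lower, against 22.2% and 9.92% of all genes. The median log2 difference was 0.12 over the members and 0.04 over all genes. The largest differences were those of APR3 (0.94 ± 0.039), SHM7 (0.90 ± 0.039), LSU3 (0.87 ± 0.099), APR1 (0.81 ± 0.05) and APR2 (0.73 ± 0.039). For each, all 3 flu1-5 ex1 dark libraries were above all 3 flu1-1 ex1 dark libraries. SDI2 was higher by 0.67 ± 0.15, SERAT2;1 by 0.32 ± 0.047, APS2 by 0.26 ± 0.035 and SIR by 0.23 ± 0.028. SDI1 and GGCT2;1 were not called, with differences of 0.25 ± 0.098 and -0.13 ± 0.11.

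LSU2 (0.47 ± 0.11) and LSU1 (0.46 ± 0.14) were also higher in dark, at levels of a few TPM, and their calls did not hold in every fit. That of LSU2 was lost without flu1-1 ex1 dark replicate 3 (0.41). That of LSU1 was lost without the same library (0.41), without flu1-1 ex1 dark replicate 2 (0.47) or without flu1-5 ex1 dark replicate 3 (0.32), each value being the log2 difference in the fit without that library. APK2 (0.23 ± 0.062) lost its call without flu1-1 ex1 dark replicate 1 (0.18) or 3 (0.23), and without flu1-5 ex1 dark replicate 1 (0.21) or 2 (0.19). APK1 (0.18 ± 0.057) lost its call without any 1 of 6 libraries, which were flu1-1 ex1 dark replicates 1 (0.18) and 2 (0.16), flu1-1 ex1 light replicates 1 and 2, flu1-5 ex1 dark replicate 3 (0.12) and flu1-5 ex1 light replicate 1, the difference being unmoved at 0.18 without a light library. With the 6 dark libraries fitted alone these 4 genes were not called either. With quantile normalization LSU1 (0.39), APK1 (0.14) and APK2 (0.17) lost their calls. LSU1 also lost its call with a pseudocount of 5 (0.18).

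In light the order was turned: 17 of 33 members were lower in flu1-5 ex1, against 21.0% of 17830 genes, and 8 were higher, against 18.1%. At least 2-fold lower were 9 members, against 0.606% of genes, and 1 was at least 2-fold higher, against 3.10%. The 7 sulphur deficiency genes tested were lower, by log2 differences of -1.30 (LSU2) to -1.81 (GGCT2;1). Together with APR1 and SERAT3;2 they made up the 9. GGCT2;1 and SERAT3;2 passed the filter through their light libraries, and APR1 and the LSU genes were picked on their smaller rise. Nothing further is therefore read from that count. APR1 was lower by 1.67, a log2 difference of -1.67 ± 0.05, APR2 had -0.70 ± 0.039 and APR3 -0.25 ± 0.039. SERAT3;2 (-1.34 ± 0.12) and SERAT2;1 (1.49 ± 0.047), isoforms of 1 enzyme, differed in opposite directions. The median log2 difference was -0.17 over the members and -0.02 over all genes.

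Both changes of order met in 11 members, or 33.3% of the 33 tested, which were higher in dark and lower in light in flu1-5 ex1, against 2.24% of all genes. They were APR1, APR2, APR3, LSU1, LSU2, LSU3, SDI2, SHM7, APS2, APK1 and APK2. As the choice of APR1 and the LSU genes used their smaller rise, which fixes part of this pattern, nothing further is read from that share. As given above, the dark calls of LSU1, LSU2, APK1 and APK2 were lost with the 6 dark libraries fitted alone. The call of APS2 in light (log2 difference -0.11 ± 0.035) was lost on leaving out flu1-1 ex1 light replicate 3 (-0.081), flu1-5 ex1 light replicate 1 (-0.11) or flu1-5 ex1 light replicate 2 (-0.10).

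**Figure D4:**
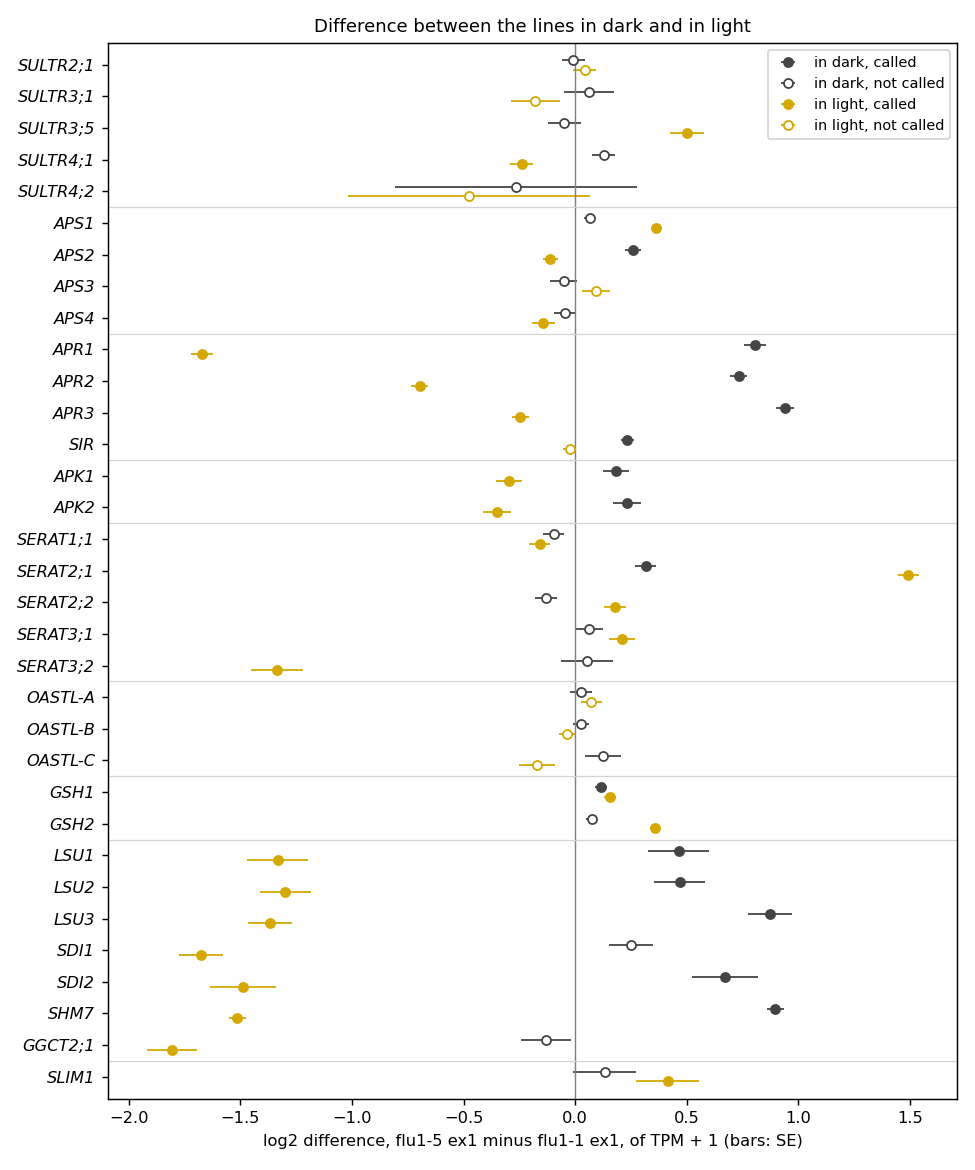
Log2 difference of TPM + 1, flu1-5 ex1 minus flu1-1 ex1, in dark (black) and in light (yellow) for the 33 members tested across lines, with standard errors; filled points passed the adjusted p of 0.05. The APR and LSU genes lie right of 0 in dark and left of 0 in light, and SERAT2;1 lies right of 0 in both, at 1.49 in light.

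The light response itself, which the choice of the set used, was smaller in flu1-5 ex1 for 16 members, against 18.3% of genes, and larger for 5, against 11.3%. By at least 2-fold, 11 were smaller, against 0.796%, and 1 was larger, against 2.03%. SERAT3;2 and GGCT2;1, which passed the filter through their light libraries, were among the 11. The difference of the log2 responses was -2.48 ± 0.07 for APR1, -2.41 ± 0.055 for SHM7, -2.24 ± 0.14 for LSU3 and -2.16 ± 0.21 for SDI2. SERAT2;1 was the member with the 2-fold larger response, at 1.18 ± 0.067. The median was -0.26 over the members and -0.06 over all genes.

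Genes of neighbouring steps that were not in the set were also read. Of 39 such genes in 6 lists, 36 were tested. In flu1-1 ex1 22 (61.1%) were higher and 8 (22.2%) lower in light, against 44.0% and 28.6% of all genes, with a median log2 change of 0.25. In flu1-5 ex1 17 (47.2%) were higher and 6 (16.7%) lower, against 38.4% and 29.3%, with a median of 0.11. Of the genes for APS kinases, PAPS use and recycling, 6 of 8 were higher in each line, led in flu1-1 ex1 by the glucosinolate sulphotransferases SOT17 (2.15 and 1.59) and SOT18 (1.89 and 1.499). Among 9 genes of methionine and S-adenosylmethionine synthesis, 7 were higher in flu1-1 ex1 and 5 in flu1-5 ex1, led by the methionine synthase MS2 (3.63 and 3.14) and MAT3 (2.39 and 1.94), which makes S-adenosylmethionine. The sulphite oxidation and siroheme list held the largest fall, that of UPM1 (-2.43 and -2.69), an enzyme of siroheme synthesis. Of the 4 further transporters tested, 2 were higher and 1 lower in flu1-1 ex1 and 1 was higher and 1 lower in flu1-5 ex1, with SULTR3;4 at 1.11 and 1.62, its dark mean in flu1-1 ex1 being under 1 TPM. Among 5 further OAS thiol-lyase family genes, 3 were higher and 2 lower in flu1-1 ex1 and 1 was higher and 2 lower in flu1-5 ex1, with the cysteine desulphydrase DES1 at 1.34 and 1.10. DES1 had dark means of 0.572 and 0.769 TPM and passed the filter through its light libraries, at 3.00 and 2.77 TPM in flu1-1 ex1 and flu1-5 ex1. Of 7 glutathione turnover and reduction genes tested, 2 were higher and 2 lower in flu1-1 ex1 and 4 were higher and 1 lower in flu1-5 ex1, with the glutathione reductase GR1 at 1.12 and 0.98. Between the lines in dark, 10 of the 36 (27.8%) were higher and 1 (2.78%) lower in flu1-5 ex1, against 14.7% and 5.68% of all genes. In light 5 (13.9%) were higher and 13 (36.1%) lower, against 18.1% and 21.0%.

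The 200 bases before the annotated start of each member were searched on both strands for GAGAC, the core of a sulphur-responsive element described for a sulphate transporter, and for CACGTG, the G-box. GAGAC was in 7 of 36 members, or 19.4%, against 21.6% of 27443 protein-coding genes, and CACGTG in 1 member, or 2.78%, against 5.64%. Of the 17 members higher by at least 2-fold in light in flu1-1 ex1, 2 held GAGAC (11.8%) and 1 held CACGTG (5.88%). The windows of those 3 members are shown, from TAIR10.1, minus strand, read 5′ to 3′, with the match in capitals on either strand. They are LSU3 (chr3:18373148-18373347), SDI1 (chr5:19807854-19808053) and GGCT2;1 (chr5:9164885-9165084).
LSU3: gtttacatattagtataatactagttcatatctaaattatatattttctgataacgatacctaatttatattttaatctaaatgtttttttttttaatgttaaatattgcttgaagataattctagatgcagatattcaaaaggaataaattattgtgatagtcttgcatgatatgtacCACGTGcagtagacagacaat
SDI1: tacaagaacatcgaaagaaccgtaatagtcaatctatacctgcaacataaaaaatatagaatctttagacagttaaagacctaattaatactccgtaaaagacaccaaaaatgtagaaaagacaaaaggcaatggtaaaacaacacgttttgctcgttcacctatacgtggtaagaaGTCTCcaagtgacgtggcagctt
GGCT2;1: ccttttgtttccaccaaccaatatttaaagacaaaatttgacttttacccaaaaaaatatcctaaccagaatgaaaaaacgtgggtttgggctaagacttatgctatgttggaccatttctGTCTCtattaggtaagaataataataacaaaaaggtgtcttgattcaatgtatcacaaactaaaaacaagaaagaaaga
After these 2 motifs showed no excess, 7 further patterns were searched in windows of 300, 500 and 1000 bases, which makes 23 searches in all. The further patterns were ATTGAANCT, the same with a C before it, CATTGAA, ATGNANCT, ATGTANCT, GAATCTNGA and a narrower form of ATGNANCT. In 7 of these 21 further searches the share of members was above that of all genes. The highest ratio, 3.44, was that of the narrower form at 300 bases, held by 6 of 36 members (16.7%) against 4.85% of genes, and it was 16.7% against 8.68% at 500 bases. As it is the highest of 23 searches, most of them added after seeing the first, it is given as a count alone. A match is a run of letters and not a binding site.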

How the data were processed

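A DNBSEQ-T7 sequenced libraries made from total RNA of seedlings, per the labels' protocols. The authors deposited 1 table per line with a value for each of 6 libraries, and for every gene a ratio of means and a p-value. That the deposited values are TPM is read from the totals, 929954 to 935223 in each library. The submitters' processing notes name kallisto 0.46.2, sleuth 0.30.0 and the build TAIR10, without role or order. The tables list 1 transcript per gene, and the 971 genes with different transcripts listed in the 2 tables, SULTR1;2 among them, were left out across lines, which leaves 26684. TPM carries no read number, so the depth is unknown. Groups follow the library descriptions, since the genotype field names flu1-1 for every library. The labels give 1 batch value for all libraries.

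Values were taken as log2(TPM + 1), which understates the change of low genes, and tested with limma 3.58.1 in R 4.3.3 (mean-variance trend, robust moderation with statmod 1.5.0, two-sided, Benjamini-Hochberg). The light responses were fitted on the 6 libraries of a line, and the other comparisons on all 12. Errors on log2 values are standard errors, and p-values are not printed, as the choice of members used dark and light values of both lines. The procedure was tested on simulated data. The members, gene lists and tests were chosen with earlier results of these data known. Values in every library are given for APR1 to APR3, the 9 sulphur deficiency genes, and members called with a log2 change of at least 1 in light or 0.58 between lines in dark. Of the rest at most 2 are named per role, apart from APS4 and the genes flagged for a closer look. In each other list at most the 2 called genes with the largest change are named. Alternatives were quantile normalization, other filters and pseudocounts, a block for the replicate number, fits without each library, a stricter threshold, a plainer variance model, the libraries of 1 light condition alone and the deposited p-value. Sequences and coordinates are from RefSeq TAIR10.1, matched by gene identifier for all 36 members, since the deposited tables hold no coordinates. Coding sequences were aligned globally with Biopython 1.88.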

Additional observations from a re-analysis of the deposited data

Results flagged for a closer look

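The light response differed between the lines, by the interaction term of limma at an adjusted p under 0.05, for 21 members. Each value is the log2 response in flu1-5 ex1 minus that in flu1-1 ex1, and since the set was picked on this difference, the values are a description. The reduction genes had -2.48 (APR1), -1.43 (APR2), -1.19 (APR3) and -0.26 (SIR). The deficiency genes had -1.80 (LSU1), -1.77 (LSU2), -2.24 (LSU3), -1.93 (SDI1), -2.16 (SDI2), -2.41 (SHM7) and -1.68 (GGCT2;1). The activation and sulphation genes had 0.30 (APS1), -0.37 (APS2), -0.48 (APK1) and -0.58 (APK2). The serine acetyltransferases had 1.18 (SERAT2;1), 0.31 (SERAT2;2) and -1.39 (SERAT3;2). The transporters had 0.55 (SULTR3;5) and -0.37 (SULTR4;1), and the glutathione synthetase gene GSH2 had 0.29.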

How the results depend on the processing

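Each count of members called stayed within 1.5 times its value under every alternative run, and none of the values recomputed changed direction past the threshold. Leaving out each library in turn gave 25 to 26 members called for light in flu1-1 ex1, 27 to 29 for light in flu1-5 ex1, 12 to 14 for the lines in dark, 21 to 25 for the lines in light and 21 to 22 for the difference of the responses. The median log2 change of the members ranged in those fits from 0.947 to 1.00, 0.488 to 0.604, 0.0923 to 0.140, -0.221 to -0.136 and -0.343 to -0.234, in the same order. In some of those fits the median moved by more than 1 SD between replicates. Examples were 0.947 for light in flu1-1 ex1, without light replicate 1, and 0.488 for light in flu1-5 ex1, without light replicate 2. Some other settings also moved these medians by more than that SD. For light in flu1-1 ex1 the median was 0.853 with quantile normalization, 0.752 with no filter, 0.517 with a mean of at least 5 TPM, 1.13 with a pseudocount of 0.1 and 0.571 with a pseudocount of 5. For light in flu1-5 ex1 it was 0.395 with quantile normalization, 0.490 with a mean of at least 5 TPM, 0.932 with a pseudocount of 0.1 and 0.365 with a pseudocount of 5. For the lines in dark it was 0.0977 with a pseudocount of 5 and 0.0834 with quantile normalization, for the lines in light -0.144 with a pseudocount of 5, and for the difference -0.306 with a pseudocount of 0.1. Of these, 0.490, 0.0977, -0.144 and -0.306 lay within the range given by leaving out a library. The cause of these shifts was not tested. With quantile normalization 11 members were higher and 1, SERAT2;2 at -0.17, was lower in dark. Same-numbered dark and light libraries of a line had correlations of -0.047 to 0.15 over 6 pairs, the highest being that of replicate 3 in flu1-1 ex1. Different-numbered dark and light libraries of a line had -0.094 to 0.070. With 3 libraries in each group, these values cannot show whether same-numbered libraries were handled together. With the replicate block 28, 29, 15, 26 and 22 members were called, in the order above. The authors' deposited p-value, adjusted, called 32 of 36 members in each line. TPM without read numbers gives no limit of detection for LSU4, BGLU28 or SULTR4;2.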
